A study of Canis lupus familiaris with 6 samples.

Results

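The genes described here are the ion transporters of 11 kidney SLC (solute carrier) families, measured in MDCK cells, an epithelial line from dog kidney. They were chosen by name: each array probe whose gene name begins with SLC4A, SLC8A, SLC9A, SLC12A, SLC20A, SLC24A, SLC26A, SLC30A, SLC34A, SLC39A or SLC41A followed by a digit. This took 104 probes and 72 of the 14228 gene names on the array. The pattern also took 3 genes that encode partner proteins and not transporters, SLC4A1AP (kanadaptin) and the scaffolds SLC9A3R1 and SLC9A3R2, which are counted among the 72. The question was whether the transcripts of these genes differ in β-cat ΔN/RasV12 cells when β-cat ΔN cells surround them.

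All 6 arrays were made from cells sorted by GFP to obtain one cell line, an MDCK-pTR GFP-RasV12 line that also carries mCherry-β-catenin Δ131. It makes GFP-tagged RasV12, an active Ras oncoprotein, under tetracycline control, and its β-catenin Δ131 is a stabilised form without the N-terminus that an EF1 promoter vector expresses constitutively. In single culture (3 arrays) these cells grew alone. In mix culture (3 arrays) 10 MDCK mCherry-β-catenin Δ131 cells were plated for each of them. Both groups had 24 h of tetracycline on collagen and were then sorted for GFP, so stabilised β-catenin, RasV12 and tetracycline are common to both. How pure the sorted cells were is not given in the sources used here, and carry-over of neighbour RNA in mix culture was not tested. Nothing in the labels says whether replicates were separate cultures, and p-values measure only the spread between these samples.

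Transporters of these families move ions across the apical and basolateral membranes of kidney epithelium by coupling one ion's gradient to another's. SLC9A, SLC4A and SLC26A proteins exchange protons, bicarbonate and other anions and so set the acid-base and chloride traffic of the cell. SLC12A proteins carry chloride with sodium or potassium, SLC8A and SLC24A proteins extrude calcium, SLC20A and SLC34A proteins take up phosphate, SLC30A and SLC39A proteins move zinc out of and into the cytosol, and SLC41A proteins carry magnesium.

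The results turn on 6 probes, and their sequences are shown because each value rests on what binds these 60 bases. The first 30 bases of each, 5′ to 3′ as on the array, follow with positions on CanFam3.1 as the array design gives them. A match longer than 60 bases lies in separate pieces on the chromosome, as for SLC4A11, which spans 146 bases, and SLC8A3, which spans 2420 bases. No exon or UTR annotation was used, and no letters are capitalised.
SLC9A2 (chr10:40338590-40338649, minus strand): aatagcagtgactcagacacagatgtcggg
SLC30A1, first probe (chr7:9956116-9956175, minus strand): tgaagtccttgtctggtcacacagtttaat
SLC30A1, second probe (chr7:9954334-9954393, minus strand): ggaatttcattatatgggcaaacaagagag
SLC39A10 (chr37:5518660-5518719, plus strand): taaagcttgtgataaagaaaggagaaaaat
SLC4A11 (chr24:18067503-18067648, plus strand): catccattgatggcaaccagctctttgaac
SLC8A3 (chr8:43782438-43784857, minus strand): gacatgtttgccagcaaagccgctgccatc

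Each array measured 43803 non-control spots, of which 61.1% to 65.7% were well above background by the scanner software's own test. Replicate 1 of both groups lay on one slide (slide 1) and the other 4 arrays on another (slide 2), so the cultures were balanced on each slide. These probes differed more between slides than between cultures. The absolute difference between slides exceeded that between cultures for 49 of 66 tested member probes, with medians of 0.35 and 0.16 on the log2 scale. The same comparison was not made over all probes, so it is not shown to be particular to these genes. Slide 1 was scanned at 3 µm and slide 2 at 5 µm, with different versions of the scanner software. Slide, scan, software version and replicate 1 therefore cannot be told apart. SLC26A8, a sulfate transporter family member, was 1.97 higher on slide 1 in normalised log2 signal while its cultures differed by -0.004. Values with the slide as a block, which compare cultures within each slide, therefore stand beside those of the unblocked fit. The arrays' number limits the precision.

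The label of kidney epithelium was checked against marker genes. Of 22 probes to 14 epithelial and kidney tubule markers, 20 were well above background on all 6 arrays, among them probes to EPCAM, CDH1 and KRT18. Of 16 markers of blood, endothelial, stromal, muscle and liver cells, PTPRC, COL3A1, PDGFRA, MYH11 and DES had no probe well above background on any array. The other 11 were detected, 9 of them on all 6 arrays (among them ALB, CD3E, CD68, COL1A2, KDR, PDGFRB, PECAM1 and VWF), so RNA of other cells is not shown to be absent. The summed signal of that list ran from 1378 to 3718 intensity units in single culture and from 1260 to 4165 in mix culture, with both highest values on slide 1. Among the 11 markers of that list that were tested, 1 was higher and 10 were lower in mix culture, and limma called 0 with the slide block and 0 without. Of the epithelial markers, CDH1 (E-cadherin) and CLDN4 (a tight junction claudin) were lower in mix culture with the slide block, by 0.47 and 0.87 on the log2 scale (limma adjusted p = 0.0444 and 0.0136), and neither was called without it (adjusted p = 0.384 and 0.674). With the replicate block CDH1 was not called (adjusted p = 0.0761). Their part in the results below was not tested. These markers cannot tell the sorted cells from their MDCK neighbours. The HRAS probe had a log2 change of -0.625 (limma adjusted p = 0.065 with the slide block, 0.608 without). Whether that probe reads the introduced RasV12 was not tested.

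Most of the families were present in these cells through some of their members. Of 104 probes, 65 (62.5%) were well above background on all 6 arrays and 32 (30.8%) on none, where the shares over all probes of the array were 58.7% and 32.3%. By gene, 49 of 72 could be tested, meaning that a probe stood well above background throughout 1 culture or both. A further 5 genes reached that level on some arrays only, and 18 on no array.

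SLC20A and SLC39A were the most fully detected: all 4 probes of the phosphate transporters SLC20A1 and SLC20A2, and 18 of 20 probes of the zinc importers, were well above background on all arrays. SLC26A and SLC24A were the least. Of 11 SLC26A anion exchanger genes, 6 were not well above background on any array, namely SLC26A3, SLC26A4, SLC26A5, SLC26A7, SLC26A9 and SLC26A10. SLC26A4 (pendrin) and SLC26A7 belong to intercalated cells of the collecting duct, as does SLC4A1 (the chloride-bicarbonate exchanger AE1), whose probe likewise stayed near background. Of 4 SLC24A genes, SLC24A5 alone was detected.

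The classical salt transporters of the nephron divided in the same way. SLC12A1, the sodium-potassium-chloride cotransporter of the thick ascending limb, was well above background on all arrays, with 118, 59.7 and 61.4 intensity units in single culture and 109, 56.3 and 56.1 in mix culture. SLC12A3, the thiazide-sensitive cotransporter of the distal convoluted tubule, was not well above background on any array, with signals of 0.849 to 1.32 intensity units. SLC12A2, the widely expressed cotransporter NKCC1, was detected throughout. SLC34A1, the main phosphate cotransporter of the proximal tubule, had 3 probes, of which 1 was well above background on 2 arrays and the others on none.

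**Figure D1:**
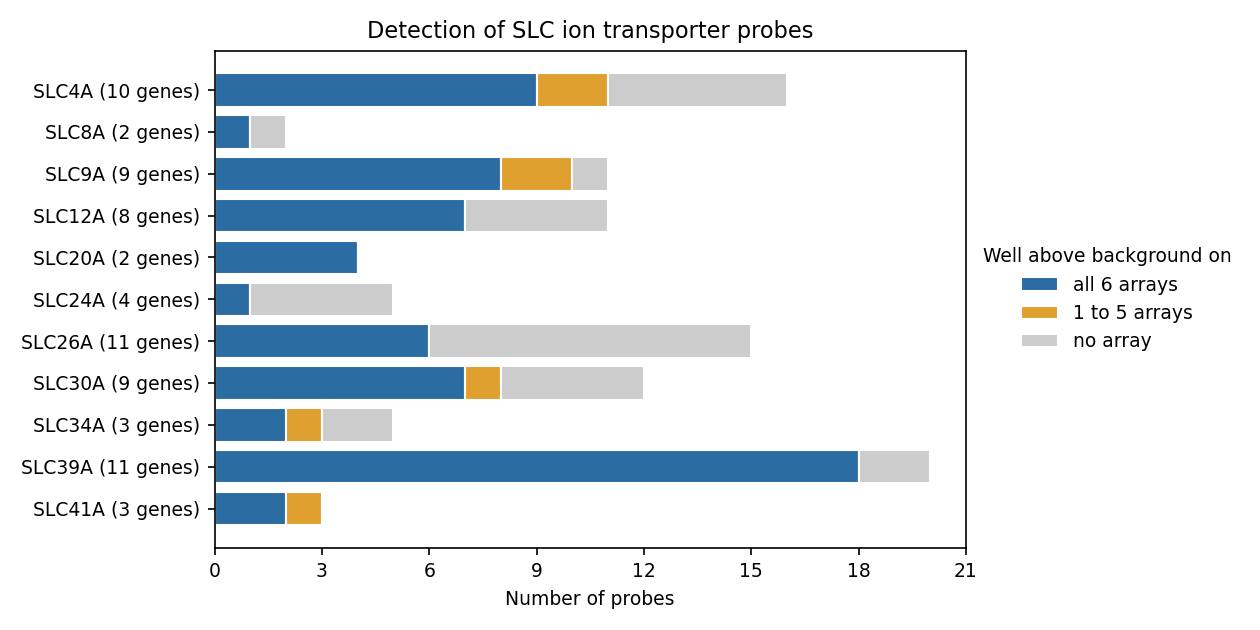
Horizontal bars give the number of probes of each SLC family that were well above background on all 6 arrays, on 1 to 5 arrays or on none; the number of genes stands in parentheses. SLC39A has 18 of 20 probes on all arrays, while SLC26A has 9 of 15 on none.

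Between cultures, no member passed the test without a block: limma called 0 of 66 member probes, where it called 0.883% of all 26623 probes tested. At an unadjusted p under 0.05 there were 4 member probes, one each of SLC9A2, SLC20A1, SLC30A1 and SLC34A3, and the methods' t-test gave 5 before and 0 after Benjamini-Hochberg adjustment. With the slide as a block limma called 6 member probes of 5 genes, or 9.09% of the 66, against 7.20% of all probes. Since SLC9A2 entered the test through mix culture alone, its direction was fixed by the filter. Without it, among probes well above background on all 6 arrays, 5 of 65 member probes (7.69%) were called against 6.53% of all such probes. SLC9A2 and both probes of SLC30A1 were higher in mix culture (3.98% of all probes were called in that direction). SLC39A10, SLC4A11 and SLC8A3 were lower (3.22% of all probes). Pairing arrays by replicate number, with the replicate number as a block, called 5 of the 66 probes (7.58%, against 5.25% of all probes). SLC8A3 was the one that fell out, at an adjusted p of 0.0777.

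As a group the members lay close to the middle of the array. Over 49 genes, with 1 probe each, the median log2 change was -0.05, with 20 genes above 0 and 29 below, and the median over all 10172 gene names tested was -0.06. A log2 change under 0.5 in size was measured for 59 of the 66 probes. The cultures did not overlap for 7 member probes (10.6%, against 16.5% of all probes). Of these, 4 were higher in mix culture (7.85% of all probes) and 3 were lower (8.66% of all probes). Each of these shares lay near or under that of the whole array.

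**Figure D2:**
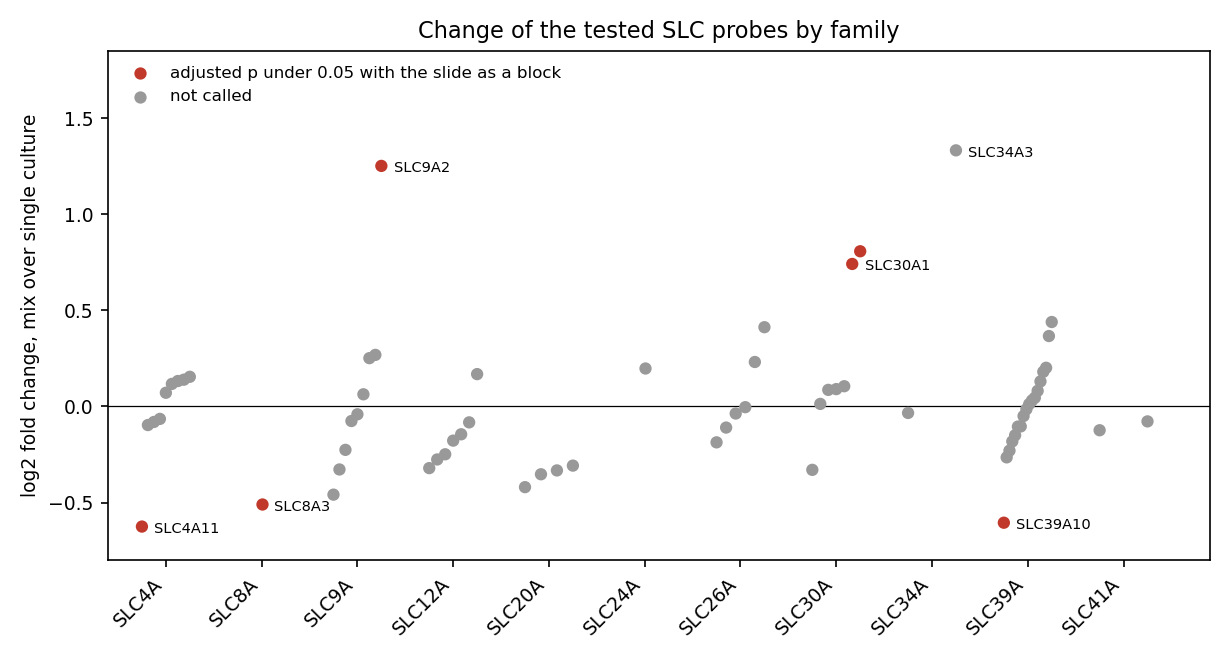
Each point is a tested probe, with its log2 fold change of mix over single culture on the vertical axis and its SLC family on the horizontal axis; red points have an adjusted p under 0.05 with the slide as a block. The 6 red points belong to SLC9A2, SLC30A1, SLC39A10, SLC4A11 and SLC8A3, and the SLC34A3 point at 1.33 is not called.

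Among the sodium-proton exchangers, SLC9A2 (NHE2, an exchanger of the apical membrane) was well above background in mix culture only. Its signals in single culture were 2.47, 2.97 and 3.61 intensity units, none well above background, and in mix culture 6.83, 9.69 and 6.18, all well above it. The cultures did not overlap. Set against a detection floor in place of its single culture signals, SLC9A2 in mix culture was 1.67-fold higher. That floor is, on each single culture array, the lowest signal that was well above background there. Some probes above the floor were still not well above background, so 1.67 is not a strict minimum, and it has no interval. The limma adjusted p of SLC9A2 was 0.00263 with the slide block and 0.171 without. The probe was tested only because it was well above background in mix culture, so that p does not support a difference. With normexp background correction, which added an offset of 50 intensity units, the fitted log2 change was 0.007 (limma adjusted p = 0.998). That offset shrinks the change of any probe this dim, so this value does not decide whether SLC9A2 differs.

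No other sodium-proton exchanger that could be tested was called. SLC9A4 and SLC9A5 could not be tested, and no member probe carried the name SLC9A3. SLC9A8, an exchanger of the Golgi and endosomes, had a log2 change of 0.27 with cultures that did not overlap (adjusted p = 0.149 with the slide block, 0.714 without). SLC9A7, of the trans-Golgi network, had the largest change of the family among probes detected on all arrays, -0.46, with -1.30 on slide 1 and -0.04 on slide 2. The scaffolds SLC9A3R1 and SLC9A3R2, which hold SLC9A3 and other transporters at the apical membrane, had log2 changes of -0.04 and -0.23.

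Among the bicarbonate transporters, SLC4A11 was the only one called, and it was lower in mix culture. SLC4A11 is a borate transporter homologue that conducts protons and water in the cornea and kidney. Its normalised log2 signals, counted from each array's 75th percentile, were 0.55, 1.80 and 1.52 in single culture and 0.12, 0.97 and 0.92 in mix culture. The cultures overlapped, because both slide 1 values lay below every slide 2 value, while within each slide mix culture was the lower. It fell by 0.62 on the log2 scale (SE 0.12 with the slide block), with -0.43 on slide 1 and -0.72 on slide 2. The limma adjusted p was 0.0237 with the slide block and 0.769 without. With the slide block and 1 array left out, the change was -0.72 to -0.52, and the call was lost without any of the 4 slide 2 arrays (adjusted p = 0.0555 and 0.0717 without single culture replicates 2 and 3, 0.0679 and 0.085 without mix culture replicates 2 and 3). Without a block, leaving out single culture replicate 1 gave -0.996 and mix culture replicate 1 -0.35.

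The other SLC4A genes tested had log2 changes between -0.10 and 0.15. They include SLC4A2 (the anion exchanger AE2), with probes at -0.10 and 0.13, SLC4A4 (the sodium-bicarbonate cotransporter NBCe1), at 0.07, and SLC4A7 (NBCn1), at 0.12. For SLC4A7 the 95% interval with the slide block was -0.14 to 0.37, so changes within it were not resolved by 6 arrays. Among the anion exchangers, SLC26A6 (a chloride, oxalate and bicarbonate exchanger) had the largest change, 0.41 in log2, with 0.40 on slide 1 and 0.42 on slide 2 (adjusted p = 0.068 with the slide block, 0.842 without).

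In the zinc families an exporter and an importer were called in opposite directions. SLC30A1 (ZnT1) is the plasma membrane zinc exporter. On its second probe the normalised log2 signals were -3.16, -3.47 and -3.61 in single culture and -2.46, -2.55 and -2.80 in mix culture, and the cultures did not overlap. The change was 0.81 (SE 0.12 with the slide block, adjusted p = 0.0065; 0.159 without), a 1.75-fold difference. The first probe gave 1.88, 0.71 and 0.83 in single culture and 2.27, 1.87 and 1.51 in mix culture. Here the slide 1 single culture lay within the mix culture range. Its change was 0.74 (SE 0.15, adjusted p = 0.0283 with the slide block; 0.648 without), 0.38 on slide 1 and 0.92 on slide 2. With 1 array left out of the slide block fit, the second probe kept its call throughout (adjusted p = 0.0181 to 0.0452), while the first lost it when single culture replicate 2 (0.0741) or 3 (0.113) was left out, or mix culture replicate 2 (0.064) or 3 (0.0714).

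SLC39A10 (ZIP10), a plasma membrane zinc importer, was lower in mix culture. Its normalised log2 signals were 3.52, 2.71 and 2.79 in single culture and 3.005, 2.09 and 2.11 in mix culture. The cultures overlapped across slides, and within each slide mix culture was lower. SLC39A10 fell by 0.61 on the log2 scale (SE 0.10 with the slide block), with -0.52 on slide 1 and -0.65 on slide 2. The limma adjusted p was 0.0118 with the slide block and 0.726 without. With the slide block and 1 array left out, the change was -0.65 to -0.57, and the call was lost without single culture replicate 3 (0.0688) or mix culture replicate 3 (0.0515). Without a block, leaving out single culture replicate 1 gave -0.35 and mix culture replicate 1 -0.91.

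The remaining zinc transporters that could be tested were not called. SLC30A5, SLC30A6 and SLC30A7, which load zinc into the secretory pathway, had log2 changes of 0.09, 0.11 and 0.01, and SLC30A9 one of -0.33 (adjusted p = 0.0936 with the slide block). SLC39A4, an apical zinc importer of epithelia, had changes of 0.37 and 0.44 on its 2 probes, nearly all of it on slide 2 (0.52 and 0.62, against 0.06 and 0.07 on slide 1). SLC39A6, the closest relative of SLC39A10 and its partner in a heteromer, had changes of -0.10, 0.13 and -0.01 on 3 probes. SLC39A14, which also carries iron and manganese, had -0.23 and -0.27.

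**Figure D3:**
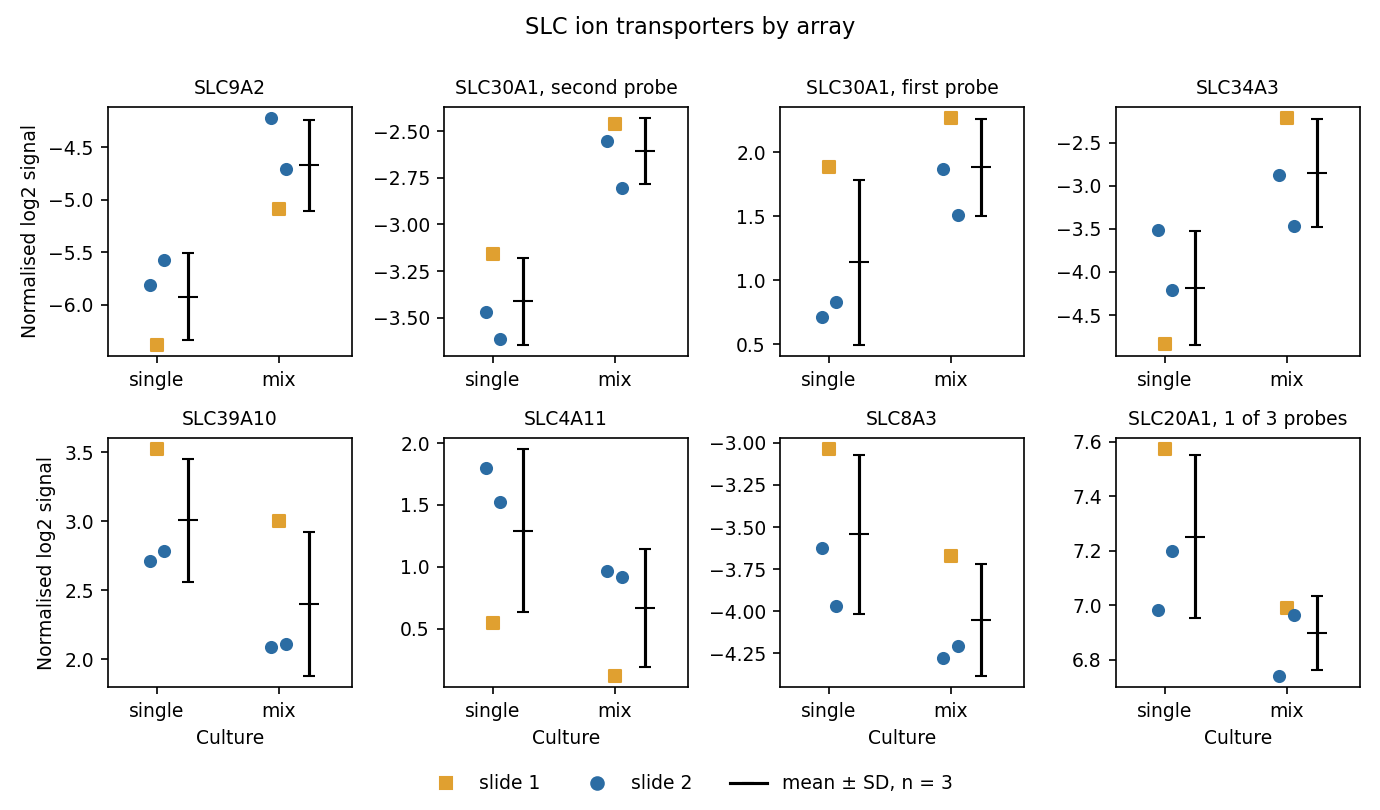
Each panel gives the normalised log2 signal of a probe on the 6 arrays by culture, with squares for slide 1, circles for slide 2 and a bar for the mean ± SD of 3 arrays. SLC9A2, the second SLC30A1 probe and SLC34A3 separate the cultures, and for SLC39A10, SLC4A11 and SLC8A3 mix culture is lower within each slide.

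The calcium exchangers were represented by 1 gene of each family. SLC8A3 (NCX3), better known from muscle and brain, had normalised log2 signals of -3.04, -3.62 and -3.97 in single culture and -3.67, -4.28 and -4.21 in mix culture, with overlap across slides. It fell by 0.51 on the log2 scale (SE 0.13 with the slide block), and its adjusted p of 0.0497 was at the edge of the threshold (0.738 without the block). The call was lost whichever array was left out of the slide block fit (adjusted p = 0.0543 to 0.19). With normexp, whose offset shrinks changes of dim probes, the unblocked change was -0.15. SLC8A2 was not well above background on any array. SLC24A5, an exchanger of intracellular membranes known from melanocytes, had a log2 change of 0.20 that differed in sign between slides, 1.22 on slide 1 and -0.31 on slide 2.

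The phosphate transporters differed by type. SLC20A1 (PiT1), a type III sodium-phosphate cotransporter, had 3 probes with log2 changes of -0.35, -0.33 and -0.42, each lower in mix culture on both slides. On 2 of them the cultures did not overlap. None was called, with adjusted p values of 0.0852 to 0.141 with the slide block and 0.521 to 0.738 without. SLC20A2 (PiT2) had a log2 change of -0.31.

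SLC34A3, a type II cotransporter of the proximal tubule, had the largest change of any member in the unblocked fit. Its signals were 7.20, 14.6 and 9.36 intensity units in single culture and 50.1, 24.6 and 14.6 in mix culture, and in normalised signal the cultures did not overlap. The log2 change was 1.33 (95% interval with the slide block 0.45 to 2.22), with 2.62 on slide 1 and 0.69 on slide 2. The adjusted p was 0.0808 with the slide block and 0.358 without, so it did not pass. With normexp, whose offset shrinks changes at signals this low, its log2 change was 0.31, against 0.73 for the brighter first SLC30A1 probe. On slide 2 alone its change was below that of the same SLC30A1 probe (0.92). SLC34A2 had a log2 change of -0.03.

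No tested chloride cotransporter or magnesium transporter was called under either fit. SLC12A3, SLC12A8 and SLC41A1 could not be tested. The largest change of the SLC12A family was that of SLC12A4 (the potassium-chloride cotransporter KCC1), with -0.32 and -0.28 on its probes (adjusted p = 0.124 and 0.26 with the slide block). SLC12A1 and SLC12A2 had log2 changes of -0.18 and -0.25. Of the magnesium transporters, SLC41A3 had -0.12 and SLC41A2 -0.08.

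**Figure D4:**
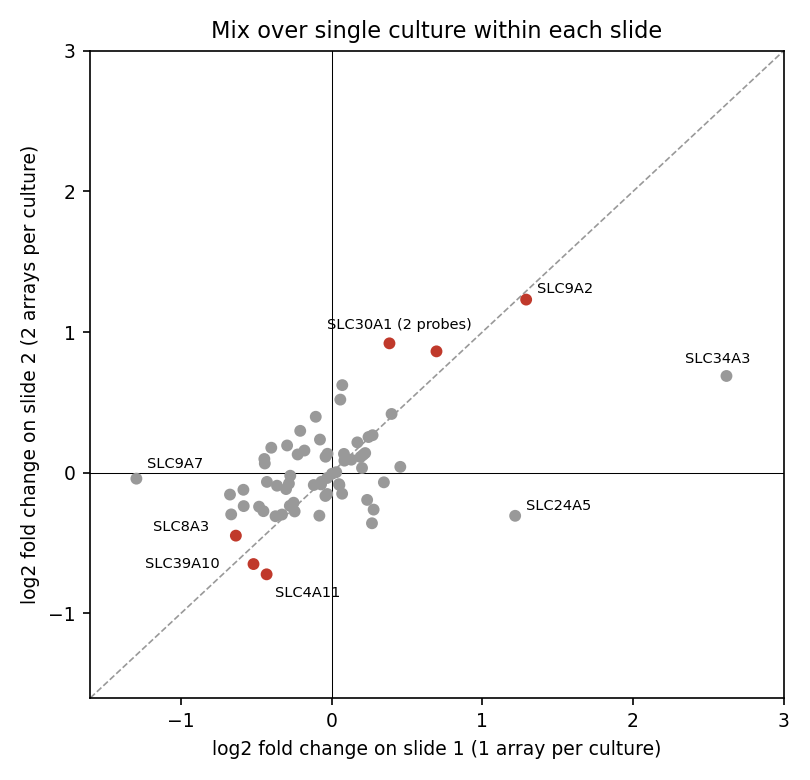
Each point is a tested member probe, with its log2 fold change of mix over single culture on slide 1 (1 array per culture, horizontal) and on slide 2 (2 arrays per culture, vertical); the dashed line marks equality and red points are called with the slide as a block. The called probes have the same sign on both slides, while SLC34A3, SLC24A5 and SLC9A7 have larger differences on slide 1 than on slide 2.

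Over all tested member probes, the sign of the change was shared by both slides for 69.7%, close to the 70.7% of all probes. Of 13 genes with several tested probes, 9 had the same sign on every probe.

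Genes that drive or regulate these transporters were read from 3 lists. These lists held 79 genes, of which 61 were on the array and 45 could be tested. With 1 probe per gene, limma called 2 of the 45 without a block (4.44%, against 0.934% of all gene names). With the slide block it called 10 (22.2%, against 7.46% of all gene names), 7 higher and 3 lower in mix culture. Both counts include KCNJ16, which entered the test through mix culture alone. The lists were chosen with earlier results of these data known, so their shares cannot show an excess of calls. Of the 43 genes read through a probe detected on all 6 arrays, 9 were called with the slide block (20.9%). The share of all such probes was 6.53%, which counts probes and not genes. In bulk RNA, fewer cells that make a transcript and less of it per cell cannot be told apart.

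The list of pumps, ion channels and carbonic anhydrases held the genes called without a block. KCNJ16 (Kir5.1), a subunit of basolateral potassium channels of the kidney tubule, had 1.56, 3.18 and 1.02 intensity units in single culture, none well above background, and 35.4, 44.8 and 26.6 in mix culture, all well above it. Set against the same kind of detection floor as for SLC9A2, KCNJ16 in mix culture was 7.86-fold higher, which is not a strict minimum either. Its adjusted p of 0.00791 without a block comes with the same limit as that of SLC9A2, since the filter let the probe in through mix culture alone. With normexp, whose offset shrinks changes at such signals, the fitted log2 change was 0.59 (adjusted p = 0.316). Carbonic anhydrase CA2, which supplies protons and bicarbonate to the exchangers, had normalised log2 signals of 2.33, 1.86 and 2.35 in single culture and 3.38, 3.48 and 3.49 in mix culture. CA2 rose by 1.27 on the log2 scale (SE 0.18, adjusted p = 0.029 without a block), and its other probe by 1.22 (adjusted p = 0.0523 without a block, 0.00448 with the slide block). Without mix culture replicate 3 neither KCNJ16 nor CA2 was called (adjusted p = 0.0518 and 0.158), and CA2 was also not called without single culture replicate 2 (0.0868) or 3 (0.118), or without mix culture replicate 1 (0.0577) or 2 (0.164).

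With the slide block 4 more genes of this list were called, and 11 of its 17 tested genes were not. Over all gene names, 7.46% were called in that fit. FXYD2, a regulatory subunit of the sodium pump, had a change of 1.00 (adjusted p = 0.00812 with the slide block, 0.614 without). ATP2B4, a plasma membrane calcium pump, and LRRC8A, a subunit of the volume-regulated anion channel, were lower by -0.79 and -0.65 in log2 (adjusted p = 0.0206 and 0.0241 with the slide block, 0.16 and 0.84 without). ATP2B4 lost its call when single culture replicate 1 (0.0894) or 3 (0.095) or mix culture replicate 1 (0.0894) or 2 (0.0591) was left out of the slide block fit, and LRRC8A without replicate 1 (0.11) or 2 (0.0644) of single culture or 1 (0.11) or 2 (0.0712) of mix culture. The list's median was -0.09.

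Of 11 tested genes that handle zinc, magnesium and phosphate, 3 were called with the slide block and 0 without. Over all gene names the shares were 7.46% and 0.934%. The metallothioneins MT1E and MT2A bind zinc in the cytosol and, like SLC30A1, are known targets of the zinc-sensing factor MTF1. MT1E had normalised log2 signals of 4.26, 3.55 and 3.61 in single culture and 5.09, 4.52 and 4.55 in mix culture, with no overlap. Its change was 0.91, and that of MT2A 0.90 (adjusted p = 0.00189 and 0.00417 with the slide block, 0.282 and 0.486 without). Metallothionein genes are close copies of each other, so these probes may share signal. STC1 (stanniocalcin-1), a hormone known to act on calcium and phosphate transport, had a change of -0.57 (adjusted p = 0.0481 with the slide block, 0.373 without), and kept its call in that fit only when single culture replicate 2 was the array left out (0.0402 to 0.191 over the 6 arrays).

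Of 17 tested regulators and scaffolds, SGK1 alone was called with the slide block, which called 7.46% of all gene names. Without a block 0 of them were called. SGK1 is the aldosterone-induced kinase that raises the activity of several of these transporters. On this probe the change was 0.85 (adjusted p = 0.00349 with the slide block, 0.785 without), while its other probe gave 0.18 (adjusted p = 0.496 with the slide block). Without a block, leaving out replicate 1 gave 0.39 for the single culture array and 1.37 for the mix culture array. PDZK1, an apical scaffold for SLC34A and SLC9A proteins, had a change of 1.13 that was not called, with 2.11 on slide 1 and 0.63 on slide 2.

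**Figure D5:**
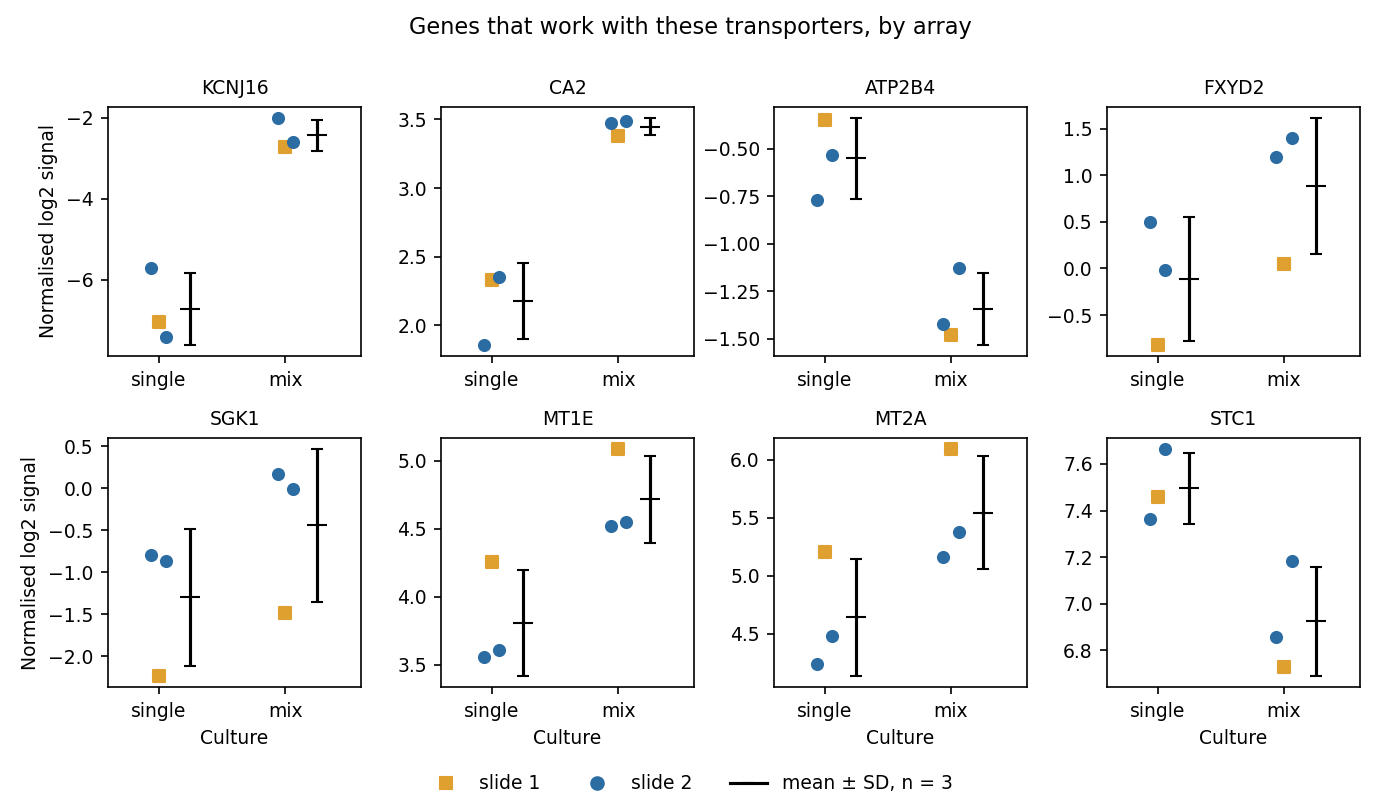
Each panel gives the normalised log2 signal of a pump, channel, enzyme or regulator gene on the 6 arrays by culture, with squares for slide 1, circles for slide 2 and a bar for the mean ± SD of 3 arrays. The cultures separate for KCNJ16, CA2, ATP2B4, MT1E and STC1, while for FXYD2, SGK1 and MT2A they overlap across slides.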

How the data were processed

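Total RNA of sorted GFP-positive cells was hybridised in one colour (Cy3) to Agilent canine arrays. For each array the authors deposited the scanner file, whose intensity values Agilent Feature Extraction (11.5.1.1 for slide 1, 12.1.1.1 for slide 2) had background-subtracted within each array. They also deposited a table of log2 values, whose steps are not given in the sources used here. In that table the columns of mix culture 2 and 3 matched each other's scanner files (r = 0.993 and 0.999), which leaves the groups as they are but not the pairing of these arrays. Genome positions are those of the array design.

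From the scanner files, flagged and control spots were dropped, spots of one probe averaged as log2 and each array's 75th percentile subtracted. Probes well above background on every array of a group were tested with limma 3.58.1 (R 4.3.3; lmFit and eBayes, two-sided). P-values were adjusted by Benjamini-Hochberg over all 26623 probes, with calls at an adjusted p under 0.05. A gene was represented by its probe with the highest mean. Named genes were members called with or without the slide block, members detected in 1 group only, the largest change of each family, and in the partner lists those called and the 2 largest changes. Other genes were named for their role after their values were seen. Some genes are not reported here. Members and lists were chosen with earlier results of these data known. Of 72 gene names, 70 matched a RefSeq table of UU_Cfam_GSD_1.0, used for names alone.

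Arrays of the same number in both groups deviated together (r = 0.801, 0.530 and 0.572). Differently numbered arrays of slide 2 deviated together more than same-numbered ones there (0.610 and 0.632), and replicate 1 lay alone on slide 1. These values therefore do not show that replicate numbers are pairs, and the replicate block is an alternative only. The unblocked fit was also run on simulated data with independent arrays and no slide difference, which does not test the slide block fit. Alternatives were the slide and replicate blocks, each slide alone, other filters, normexp background correction, quantile and median scaling, the authors' table, the methods' t-test and leaving out each array.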

Additional observations from a re-analysis of the deposited data

How the results depend on the processing

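The count of member probes called, 0 without a block, was 6 with the slide block, 5 with the replicate block that pairs arrays by number, 5 on slide 2 alone and 5 in the authors' table with the slide block; under the other filters and scalings, the methods' t-test and each array left out it was 0. Over all probes the same settings gave 1917, 1399, 983 and 1826 calls against 235, while the filter to probes detected on all 6 arrays gave 143, normexp 101 and the methods' t-test 8. Leaving out 1 array gave 86 to 242, with 94 without single culture replicate 3, 92 without mix culture replicate 2 and 86 without mix culture replicate 3. Partner genes called, 2 without a block, numbered 10 with the slide block, 10 with the replicate block, 7 on slide 2 alone and 9 in the authors' table with the slide block. They numbered 1 with the filter to all 6 arrays, 1 with no filter, 1 with normexp and 0 with the methods' t-test, and 0 to 2 when 1 array was left out. Of the arrays left out singly, CA2 kept its call without single culture replicate 1 alone (adjusted p values up to 0.164 for the others); it also lost it with no filter (0.0526) and the methods' t-test (0.169). KCNJ16 lost its call without mix culture replicate 3 (adjusted p = 0.0518), with normexp (0.316, at a log2 change of 0.59) and with the methods' t-test (0.169). The sign reversed for SLC24A5 on slide 2 alone (-0.31) and without mix culture replicate 1 (-0.27, in a range of -0.27 to 0.67 over the arrays left out), and for SLC41A3 without single culture replicate 2 (0.028, in a range of -0.23 to 0.028). Chosen after seeing the data, the slide block fit was repeated without each array in turn. Leaving out replicate 1 of either culture leaves slide 2 alone to compare cultures, so both of those fits repeat the slide 2 result. It gave 2 to 5 member probes called (5 without replicate 1 of either culture, 4 and 2 without single culture replicates 2 and 3, 3 and 2 without mix culture replicates 2 and 3). Over all probes it gave 983 without replicate 1 of either culture, 1549 and 732 without single culture replicates 2 and 3, and 1158 and 1057 without mix culture replicates 2 and 3, and partner genes called were 7 or 10. There the sign again reversed for SLC24A5 (-0.31 without replicate 1 of either culture) and for SLC41A3 (0.001 without single culture replicate 2). Counting only probes detected on all 6 arrays, the slide block called 1672 probes, 5 member probes and 9 partner genes. With normexp the log2 changes of SLC9A7, SLC26A6, SLC24A5, PDZK1 and SGK1 were -0.12, 0.23, 0.03, 0.60 and 0.54. The normexp offset of 50 intensity units shrinks the changes of dim probes, those of SLC9A2 and KCNJ16 among them. The median change of the member genes ran from -0.07 to -0.01 over all settings. The causes were not tested. Slide 1 alone, with 1 array per group, gave values and no test. Transporters below background have no measured change.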
